A study of Mus musculus with 20 samples.

Results

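The genes described here are 38 mouse genes of glycolysis and of the response to low oxygen, chosen by name: any line of the gene abundance tables whose gene name was on the list was a member. The 38 names matched 39 of 54446 gene IDs, because Aldoa stood under a main ID (ENSMUSG00000030695.16) and a low one (ENSMUSG00000114515.2). A mean of at least 1 TPM (an abundance corrected for gene length and scaled to a fixed library total) over the libraries was reached by 36 of these IDs, and only these entered the tests. Eno2, Car9 and Adm stayed below that level. The rule used no measured value, but the list was drawn up with earlier results of these data known.

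The study grew structures resembling the embryonic trunk from mouse embryonic stem cells and asked how added factors change what the structures form. Bulk RNA sequencing covered 15 libraries, 3 in each of 5 groups. All came from cells of strain F1G4 that carry a double reporter, T::H2B-mCherry/Sox2::H2B-Venus. All aggregates received 3 µM CHIR99021 (CHIR), an activator of WNT signalling, once 48 h of aggregation had passed. The group 96h holds aggregates collected at 96 h, each library pooled from 10 structures. The other groups were collected at 120 h and pooled from 6 structures a library. Gastruloid stands for structures kept without Matrigel, a basement membrane gel. TLSMG structures were in Matrigel, TLSMGC structures in Matrigel with CHIR added again, and TLSMGCL structures in Matrigel with CHIR and LDN, an inhibitor of BMP receptors. The doses of these later additions are not given in the sources used here. Feeder cells had been removed before aggregation. Structures were picked for an asymmetric pole, so the values describe picked structures. The labels call the libraries of a group biological replicates without saying what was repeated, so p-values measure the spread between these libraries.

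Glycolysis splits glucose into pyruvate in the cytosol. Glucose enters through transporters of the Slc2a family, and hexokinase and phosphofructokinase catalyse its committed early steps. Lactate dehydrogenase turns pyruvate into lactate, which leaves through Slc16a transporters, while pyruvate dehydrogenase kinases restrain the entry of pyruvate into mitochondria. When oxygen falls, the hydroxylases encoded by Egln genes stop marking hypoxia-inducible factors (HIF) for destruction, and HIF raises many glycolytic genes together with Vegfa, Bnip3 and others. In vertebrate embryos, glycolytic activity is described as high in the tailbud and the posterior presomitic mesoderm, where WNT and FGF signals are also high.

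Depth can be compared only through the deposited coverage per FPKM unit, which ran from 3.12 to 6.84 over the libraries. A level of 1 TPM was reached by 13688 to 14494 genes, depending on the library. The labels give mESC as the cell type. Of 6 stem cell markers, all were at or above 1 TPM at 96h, where they summed to 112 to 178 TPM, and the sums were lower at 120 h (Gastruloid 76.2 to 109, TLSMG 41.4 to 51.0, added CHIR 15.0 to 33.1). Pou5f1 was the largest part of the sum at 96h (116 TPM on average) and in Gastruloid (57.8). Nanog, Zfp42 and Esrrb instead had their highest means in Gastruloid (15.4, 9.90 and 6.62 TPM). Markers of other cells also moved between groups. The 10 presomitic and tailbud markers summed to 1259 to 1773 TPM at 96h. Their sums at 120 h were 147 to 262 TPM without added CHIR and 404 to 520.1 with it. Cyp26a1 went against its list's sum, with means of 7.30 and 5.10 TPM in Gastruloid and TLSMG and 3.03 and 1.73 in TLSMGC and TLSMGCL. Nkx1-2 did not follow it either, with means of 51.0 TPM in TLSMG and 49.1 in TLSMGC. Nkx1-2, Fgf8 and Cdx2 did not pass a test among the 120 h groups (limma F test, adjusted p = 0.117, 0.247 and 0.168). The 8 neural tube markers summed highest in Gastruloid (380.2 to 519 TPM), followed by TLSMG (200.3 to 303), and were low at 96h (64.6 to 87.8) and with added CHIR (54.6 to 85.1). Hes5 did not follow this order, with means of 20.2 TPM at 96h and 13.0 in TLSMG. Neurog2 was low and alike in TLSMG and TLSMGC (0.53 and 0.51 TPM). The 8 somite markers summed to 640.0 to 841 TPM with added CHIR and to 823 to 1166 in the other libraries. Meox1 went with this sum (means of 229 and 279 TPM in TLSMGC and TLSMGCL, 393 to 566 in the other groups). Tcf15 went the other way (322 and 365 against 154 to 260), and Uncx was highest in TLSMGCL (35.9). The 7 endothelial markers were highest in TLSMG, at 242 to 294 TPM against 8.73 to 72.1 in the other groups. The 6 feeder fibroblast markers summed to at most 28.7 TPM, and of 5 blood markers only Gata1 was above 0, in 1 library. In bulk samples, fewer cells of a type and less RNA per cell cannot be told apart.

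Most of the glycolytic and hypoxia genes changed with time and with CHIR. Of the 36 IDs tested, 34 differed among the 5 groups (limma F test, Benjamini-Hochberg adjusted p under 0.05), against 73.5% of all 14290 genes, and 31 differed among the groups at 120 h, against 62.7%. Gapdh and the low Aldoa ID did not pass the first of these tests. The highest group mean lay in TLSMGC for 15 members and in TLSMGCL for 8, whereas 14.1% and 8.82% of all genes had theirs there. The lowest group mean lay in Gastruloid for 12 members and in TLSMG for 11, against 26.1% and 9.22% of all genes, and at 96h for 7, against 27.2%. The heatmap shows the values library by library. For 9 of the 17 enzyme IDs all 6 libraries with added CHIR lay above the 6 without it at 120 h, against 5.54% of all genes. Hk1 and Ldhb were lowest in TLSMGC, and Pfkm and Gapdh overlapped.

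**Figure D1:**
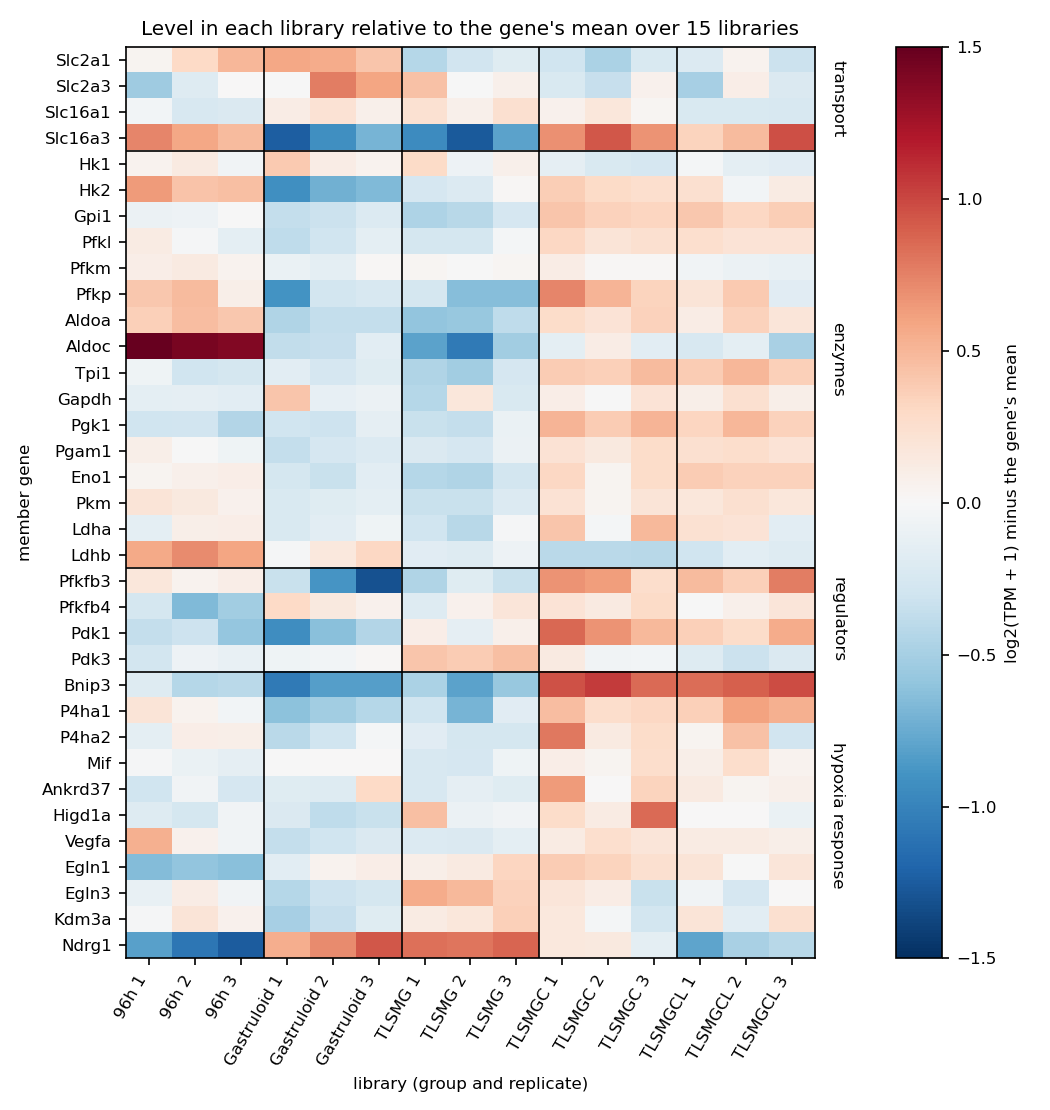
Heatmap of 35 tested members (rows, grouped by role, the low Aldoa ID left out) in 15 libraries (columns, by group), coloured by log2(TPM + 1) minus the gene's mean over all libraries; values beyond 1.5 take the end colour. In the enzyme block 9 rows, such as Aldoa and Pgk1, are higher in every TLSMGC and TLSMGCL library than in every Gastruloid and TLSMG library (5.54% of all genes are). Aldoc and Ldhb are highest at 96h and Ndrg1 is highest in Gastruloid and TLSMG.

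In each comparison the threshold was an adjusted p under 0.05 over all genes tested (limma on log2(TPM + 1)). Members that passed it were mostly lower in Gastruloid and TLSMG than at 96h, and mostly higher in TLSMGC than in TLSMG. The groups at 120 h are parallel treatments, so neither Gastruloid nor TLSMG is an earlier state of TLSMGC. From 96h to Gastruloid 5 members rose and 17 fell (61.1% called, against 41.2% of all genes, 20.8% higher and 20.5% lower). From 96h to TLSMG 7 rose and 15 fell (61.1% called against 46% of all genes, 33.5% higher and 12.5% lower). With CHIR added in Matrigel, TLSMGC against TLSMG, 22 rose and 5 fell (75.0% called against 40.9%, 10.4% higher and 30.5% lower). TLSMGC against 96h gave 15 higher and 3 lower (50% called against 40.7%, 20.6% higher and 20.1% lower). These comparisons share libraries: 96h serves in 3 of them and TLSMG in several, so they are not independent of each other. Members whose 3 libraries lay all above or all below the 3 of the other group numbered 7 and 18 in Gastruloid against 96h (56.8% of all genes were separated so), 7 and 17 in TLSMG against 96h (58.4%), 20 and 6 in TLSMGC against 96h (52.3%) and 21 and 5 in TLSMGC against TLSMG (52.4%).

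The median member differed by -0.24 on the log2 scale between Gastruloid and 96h, by -0.18 between TLSMG and 96h, by 0.44 between TLSMGC and TLSMG and by 0.23 between TLSMGC and 96h. The medians over all genes were 0.00, 0.14, -0.16 and 0.02 in the same order. TLSMG libraries thus carry a shift of the median gene, which median-of-ratios scaling takes to -0.01 in these 2 comparisons. Relative to the median gene, the members' median in TLSMGC against TLSMG was 0.59 as deposited and 0.61 after that scaling. The split of calls in TLSMG against 96h went from 7 higher and 15 lower to 5 higher and 20 lower after it, and that of all genes called from 72.9% to 49.2% higher. In TLSMGC against TLSMG it went to 25 higher and 3 lower, and that of all genes called from 25.5% to 49.4% higher.

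**Figure D2:**
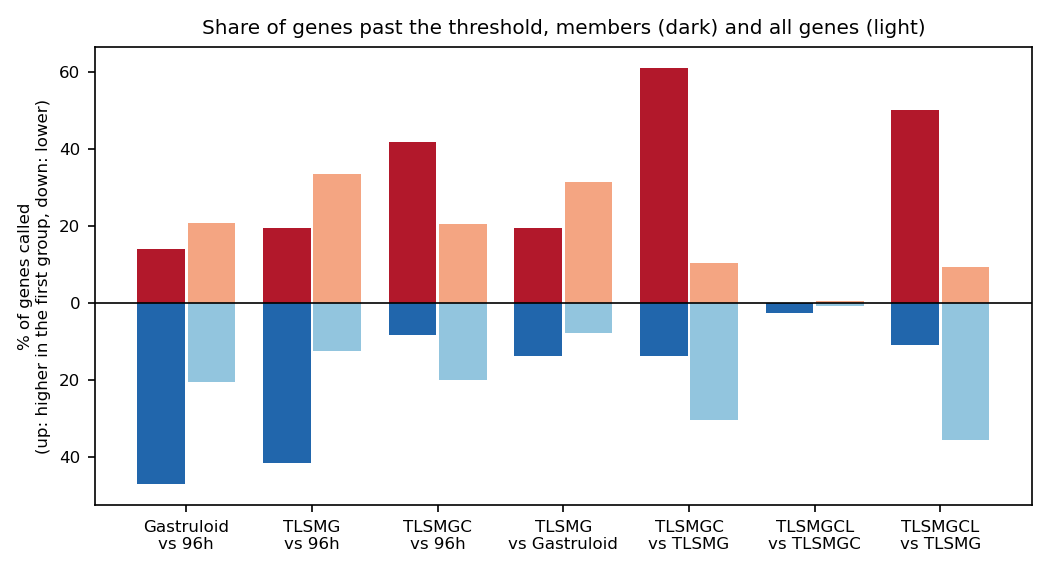
Bars show the percentage of genes past the threshold in each of 7 comparisons, upward for higher and downward for lower in the group named first; dark bars are the 36 member IDs and light bars all 14290 genes tested. In TLSMGC against TLSMG 61.1% of members are higher against 10.4% of all genes, and in Gastruloid against 96h 47.2% of members are lower against 20.5% of all genes.

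Among the transporters, Slc16a3, which exports lactate, had the widest swing. Slc16a3 (ENSMUSG00000025161.16, chr11:120948480-120960868, plus strand, mouse build GRCm38) stood at 161, 145 and 135 TPM at 96h, at 40.5, 50.6 and 59.1 in Gastruloid and at 49.6, 39.6 and 54.8 in TLSMG. It stood at 155, 184 and 155 TPM in TLSMGC and at 121, 134 and 189 in TLSMGCL. The 9 libraries at 96h and with added CHIR all lay above the 6 libraries at 120 h without it. The log2 difference was -1.55 ± 0.17 (SE) from 96h to Gastruloid (adjusted p = 8.5e-06, limma) and -1.60 ± 0.17 to TLSMG (adjusted p = 5.5e-06, limma). TLSMGC exceeded TLSMG 3.43-fold in mean TPM, a log2 difference of 1.77 ± 0.17 (adjusted p = 3.6e-06, limma), and its libraries overlapped those at 96h (0.17 ± 0.17, adjusted p = 0.47, limma).

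Slc16a1, the other lactate transporter of the list, stayed within a narrow band: 95.1 ± 7.67 TPM (SD, n = 3) at 96h, 117 ± 5.84 in Gastruloid, 121 ± 7.64 in TLSMG, 114 ± 6.11 in TLSMGC and 90.7 ± 0.39 in TLSMGCL. It was higher than at 96h in Gastruloid (0.30), TLSMG (0.35) and TLSMGC (0.26), each past the threshold (limma), but a correction for GC content and length left 0.03 in TLSMG (adjusted p = 0.80, limma) and 0.19 in TLSMGC (adjusted p = 0.11, limma). CHIR in Matrigel changed it by -0.09 ± 0.07 (adjusted p = 0.33, limma).

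Slc2a1, the widespread glucose transporter, went another way. It stood at 374, 447 and 513 TPM at 96h and at 544, 534 and 485 in Gastruloid, but at 271, 299 and 322 in TLSMG, 296, 263 and 312 in TLSMGC and 316, 377 and 291 in TLSMGCL. All 3 Gastruloid libraries exceeded all 9 libraries in Matrigel. Against 96h, Slc2a1 was lower in TLSMG (-0.57 ± 0.12, adjusted p = 0.0014, limma) and in TLSMGC (-0.61 ± 0.12, adjusted p = 0.0011, limma). The log2 difference of TLSMG from Gastruloid was -0.81 ± 0.12 (adjusted p = 3.1e-04, limma), and CHIR in Matrigel left it at -0.04 ± 0.12 (adjusted p = 0.82, limma). Slc2a3, a glucose transporter of high affinity, ranged from 92.3 to 134 TPM at 96h and from 134 to 230 in Gastruloid, a difference of 0.69 ± 0.21 on the log2 scale (adjusted p = 0.017, limma). That call was lost without 96h replicate 1, Gastruloid replicate 2 or Gastruloid replicate 3 (adjusted p = 0.078, 0.081 and 0.058, limma).

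**Figure D3:**
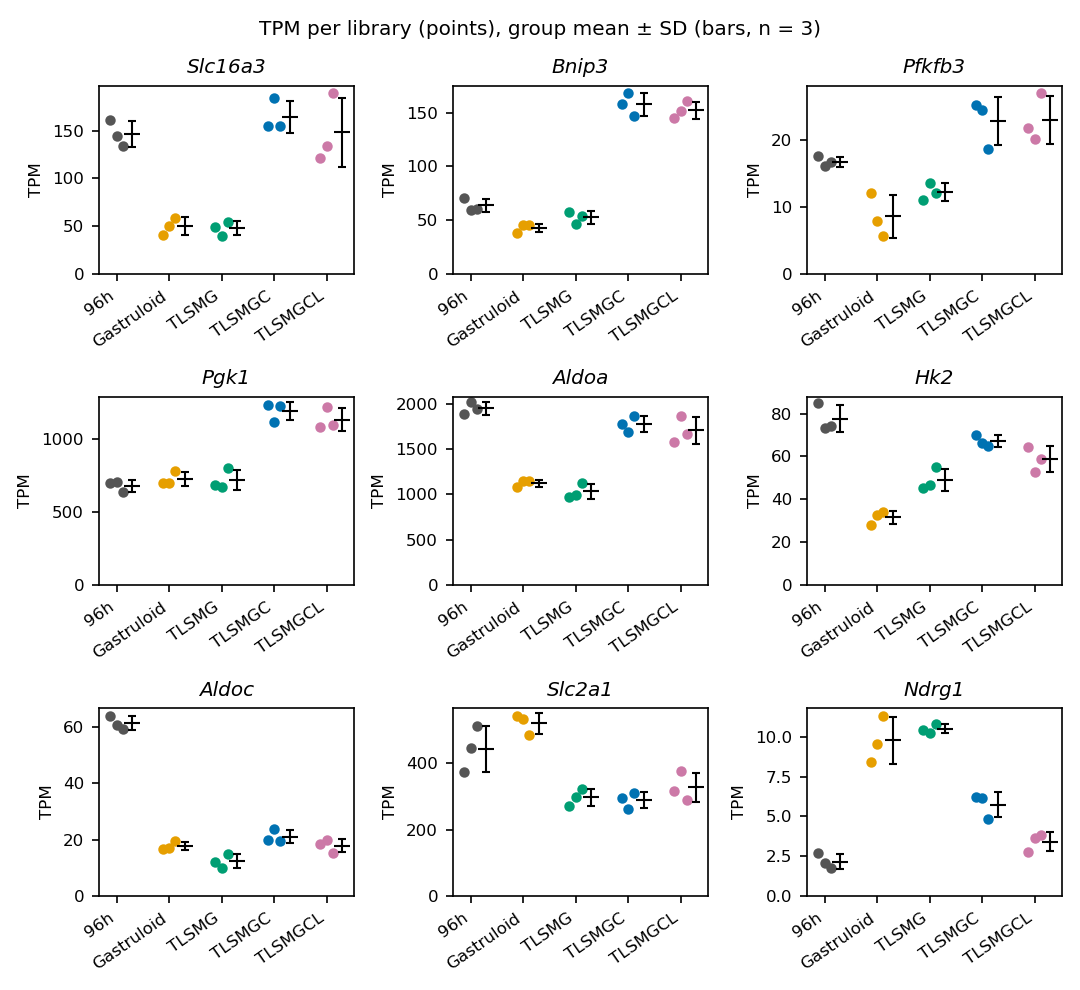
TPM of 9 members in each library (points, 3 per group, vertical axes from 0) with the group mean ± SD (n = 3). Slc16a3, Bnip3, Pfkfb3, Pgk1 and Aldoa are higher in TLSMGC and TLSMGCL than in Gastruloid and TLSMG, Aldoc is highest at 96h, Slc2a1 is highest in Gastruloid and Ndrg1 is highest in Gastruloid and TLSMG.

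Of 17 enzyme IDs of glycolysis tested, 11 were lower and 0 higher in Gastruloid than at 96h, against 20.5% of all genes lower and 20.8% higher. In TLSMG 10 were lower and 0 higher than at 96h, against 12.5% and 33.5% (medians -0.26 in both). Gapdh, Pgk1, Ldha, Hk1 and the low Aldoa ID passed in neither. In TLSMGC 13 were higher and 2 lower than in TLSMG (median 0.47), against 10.4% of all genes higher and 30.5% lower, the 2 lower ones being Hk1 and Ldhb. Against 96h, TLSMGC had 6 higher and 2 lower (median 0.20), against 20.6% and 20.1%. Marker sums moved with these differences. Those of the presomitic and tailbud markers, 10 of 10 at or above 1 TPM in every library at 96h and with added CHIR, were lower in Gastruloid and TLSMG than in the other groups. Those of the neural tube markers were higher in Gastruloid and TLSMG. Single markers of both lists went otherwise, as given above. The part of either list in the result was not tested.

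Hexokinase traps glucose as its phosphate, and Hk2 is the form often raised in fast-growing cells. Hk2 stood at 84.9, 73.5 and 74.4 TPM at 96h, 28.1, 32.6 and 34.0 in Gastruloid, 45.5, 46.7 and 54.9 in TLSMG, 70.2, 66.4 and 64.9 in TLSMGC and 64.5, 52.6 and 59.0 in TLSMGCL. The Gastruloid libraries lay below those of every other group. Its log2 difference from 96h was -1.27 ± 0.10 in Gastruloid (adjusted p = 2.6e-07, limma) and -0.65 ± 0.10 in TLSMG (adjusted p = 1.2e-04, limma), and TLSMGC exceeded TLSMG by 0.45 ± 0.10 (adjusted p = 0.0025, limma). Hk1, the housekeeping form, stayed between 12.4 and 19.9 TPM in all libraries. It was lower in TLSMGC than in TLSMG (-0.30 ± 0.11, adjusted p = 0.036, limma), a call lost without TLSMG replicate 1 or 3 or TLSMGC replicate 2 or 3 (adjusted p = 0.15, 0.072, 0.081 and 0.099, limma) and after median-of-ratios scaling (-0.15, adjusted p = 0.32, limma).

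Phosphofructokinase commits sugar to glycolysis and has 3 genes here. Pfkl was the most abundant, at 261 ± 23.8 TPM (SD, n = 3) at 96h, 218 ± 18.7 in Gastruloid, 232 ± 22.9 in TLSMG, 314 ± 12.7 in TLSMGC and 308 ± 4.86 in TLSMGCL. Pfkp was the least abundant, at 5.58, 5.91 and 4.32 TPM at 96h, 1.69, 3.12 and 3.21 in Gastruloid and 3.15, 2.20 and 2.21 in TLSMG, and at 7.27, 6.10 and 5.28 in TLSMGC and 4.71, 5.56 and 3.44 in TLSMGCL. No Pfkp library without added CHIR at 120 h reached the lowest library of the groups with it. Pfkp was lower than at 96h by -0.79 ± 0.20 in Gastruloid and -0.83 ± 0.20 in TLSMG (adjusted p = 0.0059 and 0.0036, limma). It rose by 1.04 ± 0.20 from TLSMG to TLSMGC (adjusted p = 0.0010, limma), and Pfkl by 0.43 ± 0.08 (adjusted p = 9.3e-04, limma). Pfkm kept between 41.4 and 50.5 TPM and differed by 0.03 ± 0.06 with CHIR (adjusted p = 0.66, limma).

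Aldolase splits the sugar phosphate, and its forms behaved differently. Aldoa stood at 1885, 2020.5 and 1941 TPM at 96h, 1076, 1143 and 1148 in Gastruloid and 974, 991 and 1129.6 in TLSMG. It stood at 1779.9, 1692 and 1868 TPM in TLSMGC and 1580.4, 1866 and 1667 in TLSMGCL. All libraries without added CHIR at 120 h lay below all others. Aldoa fell by 0.92 on the log2 scale from 96h to TLSMG (SE 0.07, adjusted p = 2.3e-07, limma) and TLSMGC exceeded TLSMG by 0.79 ± 0.07 (adjusted p = 1.8e-06, limma).

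Aldoc, the aldolase best known from brain, had the largest fall of all members (ENSMUSG00000017390.15, chr11:78322968-78327781, plus strand). It stood at 64.1, 60.6 and 59.3 TPM at 96h, 16.8, 17.0 and 19.5 in Gastruloid, 12.2, 10.0 and 15.1 in TLSMG, 19.8, 23.8 and 19.5 in TLSMGC and 18.5, 19.8 and 15.3 in TLSMGCL. Every 120 h library was below every 96h library. The log2 differences from 96h were -1.74 ± 0.13 in Gastruloid, -2.23 ± 0.13 in TLSMG and -1.5 ± 0.13 in TLSMGC (adjusted p = 2.2e-07, 1.7e-08 and 1.0e-06, limma). TLSMGC exceeded TLSMG in Aldoc by 0.73 ± 0.13 (adjusted p = 6.7e-04, limma), and the TLSMGC mean was 0.34 times the 96h mean.

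The remaining enzymes of the main path moved by less than 1 on the log2 scale. Pgk1, which makes the first ATP of the pathway, stood at 700.1, 705 and 633 TPM at 96h, 698, 696 and 783 in Gastruloid, 683, 671 and 801 in TLSMG, 1230.4, 1118 and 1227 in TLSMGC and 1081, 1220.5 and 1092 in TLSMGCL. It did not pass the test between 96h and either group without added CHIR, and rose by 0.73 ± 0.08 from TLSMG to TLSMGC (adjusted p = 9.7e-06, limma). Tpi1, which interconverts the triose phosphates, averaged 590 ± 52.9 TPM at 96h, 514 ± 52.4 in TLSMG and 899 ± 37.9 in TLSMGC (SD, n = 3), a rise of 0.81 ± 0.08 with CHIR (adjusted p = 3.3e-06, limma). Both thus exceeded their 96h level in TLSMGC, by 0.81 ± 0.08 for Pgk1 and 0.61 ± 0.08 for Tpi1 (adjusted p = 3.2e-06 and 3.2e-05, limma).

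Gpi1, which makes fructose phosphate, rose by 0.74 ± 0.06 with CHIR in Matrigel (adjusted p = 7.1e-07, limma) and ended above 96h by 0.42 ± 0.06 (adjusted p = 9.1e-05, limma). Eno1 (0.59), Pkm (0.44) and Pgam1 (0.40), the last steps before pyruvate, were also higher in TLSMGC than in TLSMG. They fell from 96h to TLSMG by -0.45, -0.42 and -0.19. The Pgam1 fall was lost without 96h replicate 1, TLSMG replicate 1 or TLSMG replicate 2 (adjusted p = 0.082, 0.056 and 0.079, limma). Levels of Eno1, Pgk1, Pgam1 and Pkm are uncertain because near-identical copies took part of the signal: Eno1b and Gm4735 averaged 818 and 659 TPM against 1943 for Eno1, Pgk1-rs7 and Gm5537 averaged 340 and 334 against 889 for Pgk1, Pgam1-ps2 averaged 371 against 667 for Pgam1, and Gm6560 averaged 114 against 2549 for Pkm. Gapdh, often used as a reference, passed no comparison, with differences from -0.23 to 0.30 and libraries from 1541 to 2775 TPM.

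Lactate dehydrogenase closes fermentation, and its subunits split. Ldhb stood at 131, 145 and 133 TPM at 96h, 86.6, 98.4 and 109 in Gastruloid, 77.8, 77.0 and 83.7 in TLSMG, 66.5, 66.3 and 65.9 in TLSMGC and 71.4, 78.8 and 76.5 in TLSMGCL. No 120 h library reached the 96h libraries, and the differences from 96h were -0.47 ± 0.08 in Gastruloid, -0.77 ± 0.08 in TLSMG and -1.03 ± 0.08 in TLSMGC (adjusted p = 2.4e-04, 2.9e-06 and 2.2e-07, limma). Ldhb was also lower in TLSMGC than in TLSMG (-0.26, adjusted p = 0.015, limma). That call was lost without TLSMG replicate 3 (adjusted p = 0.062, limma) and after median-of-ratios scaling (-0.10, adjusted p = 0.35, limma). Ldha did not pass the test between 96h and Gastruloid or TLSMG. It averaged 1746 ± 257 TPM in TLSMG and 2547 ± 459 in TLSMGC (SD, n = 3). That difference was 0.54 ± 0.14 (adjusted p = 0.0083, limma), with 1 library of each group overlapping.

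**Figure D4:**
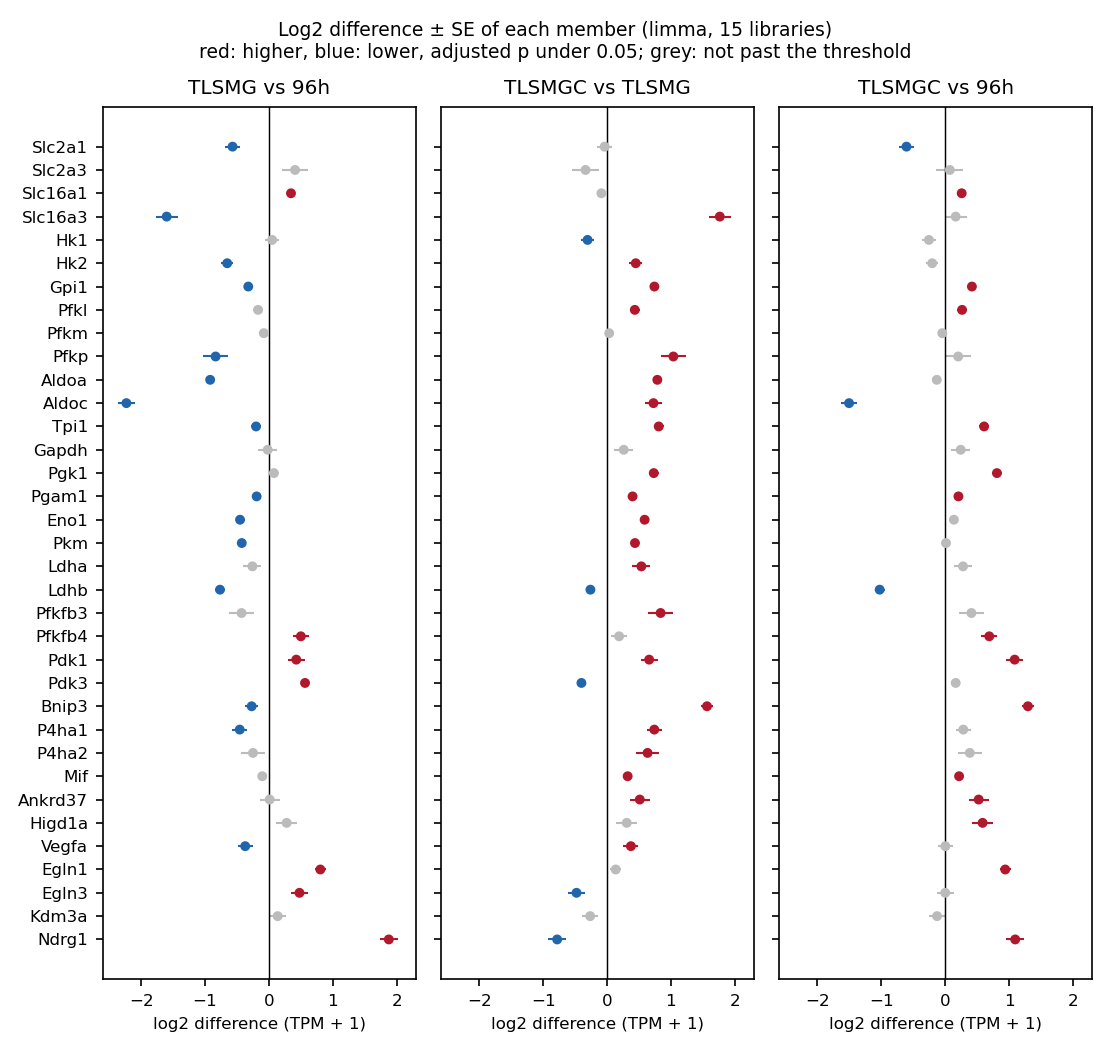
Log2 difference ± SE (limma, 15 libraries) of 35 tested members in TLSMG against 96h, TLSMGC against TLSMG and TLSMGC against 96h; red is higher, blue lower, with adjusted p under 0.05, and grey did not pass. Slc16a3 lies at -1.60, 1.77 and 0.17 in the 3 panels and Bnip3 at -0.27, 1.57 and 1.30.

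Among the regulators, Pfkfb3 and Pfkfb4 make the activator of phosphofructokinase. Pfkfb3 stood at 17.6, 16.1 and 16.7 TPM at 96h, 12.1, 7.97 and 5.71 in Gastruloid, 11.1, 13.6 and 12.2 in TLSMG, 25.3, 24.6 and 18.8 in TLSMGC and 21.9, 20.2 and 27.1 in TLSMGCL. The 6 libraries with added CHIR exceeded the other 9, but TLSMGC did not pass the test against 96h (limma). Pfkfb3 fell by 0.95 on the log2 scale from 96h to Gastruloid (SE 0.20, adjusted p = 0.0017, limma), and TLSMGC exceeded TLSMG by 0.84 ± 0.20 (adjusted p = 0.0039, limma). Pfkfb4 was lowest at 96h (3.25 ± 0.60 TPM) and between 5.02 and 5.83 TPM on average in all 120 h groups, past the threshold against 96h in Gastruloid (0.65), TLSMG (0.50) and TLSMGC (0.69).

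Pdk1 and Pdk3, kinases that switch off pyruvate dehydrogenase, responded to CHIR in opposite directions. Pdk1 stood at 31.9, 33.0 and 27.1 TPM at 96h, 21.0, 26.3 and 30.0 in Gastruloid, 44.2, 37.4 and 43.3 in TLSMG, 75.6, 66.0 and 58.1 in TLSMGC and 53.1, 49.9 and 60.9 in TLSMGCL. Its libraries with added CHIR lay above all others. TLSMGC exceeded TLSMG by 0.66 ± 0.13 (adjusted p = 0.0014, limma) and 96h by 1.09 ± 0.13 (adjusted p = 2.3e-05, limma). Its rise from 96h to TLSMG (0.43, adjusted p = 0.017, limma) was lost without 96h replicate 3, TLSMG replicate 1 or TLSMG replicate 3 (adjusted p = 0.075, 0.058 and 0.054, limma) and after median-of-ratios scaling (0.26, adjusted p = 0.098, limma). Pdk3 was highest in TLSMG, at 85.1 ± 1.91 TPM against 57.2 ± 4.26 at 96h, 62.3 ± 1.96 in Gastruloid, 64.3 ± 4.95 in TLSMGC and 53.7 ± 2.49 in TLSMGCL (SD, n = 3). It rose from 96h to TLSMG by 0.57 ± 0.07 (adjusted p = 1.9e-05, limma) and was lower in TLSMGC than in TLSMG by -0.40 ± 0.07 (adjusted p = 4.8e-04, limma).

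Of 11 hypoxia-response genes tested, 6 were higher and 2 lower in TLSMGC than in TLSMG (median 0.32), against 10.4% of all genes higher and 30.5% lower. In TLSMGC 6 were higher and 0 lower than at 96h (median 0.39), against 20.6% and 20.1%. Bnip3, a mitophagy receptor and HIF target, rose most (ENSMUSG00000078566.8, chr7:138890836-138909519, minus strand). It stood at 70.7, 59.8 and 60.6 TPM at 96h, 38.2, 45.2 and 45.1 in Gastruloid, 57.9, 46.0 and 54.3 in TLSMG, 158, 168 and 147 in TLSMGC and 145, 152 and 161 in TLSMGCL. The 6 libraries with added CHIR all lay at 145 TPM or more and the other 9 at 70.7 or less. TLSMGC exceeded TLSMG 2.99-fold (log2 difference 1.57 ± 0.10, adjusted p = 7.4e-08, limma) and 96h by 1.30 ± 0.10 (adjusted p = 2.4e-07, limma). Gastruloid was lower than 96h by -0.56 ± 0.10 (adjusted p = 4.3e-04, limma). The smaller fall to TLSMG (-0.27, adjusted p = 0.036, limma) was lost without 96h replicate 1, TLSMG replicate 2 or TLSMG replicate 3 (adjusted p = 0.15, 0.17 and 0.054, limma).

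P4ha1, a subunit of the enzyme that hydroxylates collagen, was also highest with added CHIR. It stood at 61.4, 55.5 and 52.0 TPM at 96h, 34.8, 37.2 and 39.8 in Gastruloid, 43.3, 32.6 and 47.6 in TLSMG, 74.7, 64.7 and 66.9 in TLSMGC and 68.9, 81.7 and 78.1 in TLSMGCL. All libraries with added CHIR exceeded all others, but, unlike for Bnip3, TLSMGC did not pass the test against 96h (limma). It was lower than at 96h by -0.58 ± 0.12 in Gastruloid and -0.46 ± 0.12 in TLSMG (adjusted p = 0.0016 and 0.0068, limma), and rose by 0.74 ± 0.12 from TLSMG to TLSMGC (adjusted p = 3.0e-04, limma). P4ha2, its partner form, rose by 0.64 ± 0.19 (adjusted p = 0.015, limma), a call lost without TLSMGC replicate 1 (adjusted p = 0.069, limma).

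Vegfa, which drives vessel growth, averaged 25.2 ± 5.95 TPM at 96h, 17.6 ± 0.88 in Gastruloid, 19.0 ± 0.51 in TLSMG, 24.9 ± 1.18 in TLSMGC and 23.6 ± 0.36 in TLSMGCL (SD, n = 3). Its rise from TLSMG to TLSMGC was 0.37 ± 0.12 (adjusted p = 0.020, limma), lost without TLSMG replicate 2 or TLSMGC replicate 2 (adjusted p = 0.057 and 0.063, limma). The endothelial marker sums were highest in TLSMG, where Vegfa was below its levels at 96h (32.0, 22.8 and 20.9 TPM) and with added CHIR. The Vegfa call in TLSMG against 96h was lost without either of 2 libraries (adjusted p up to 0.055, limma). Mif, a cytokine at 1803 to 2574 TPM, rose from TLSMG to TLSMGC by 0.32 ± 0.07 (adjusted p = 0.0027, limma). Ankrd37, an ankyrin repeat gene known as a HIF target, rose by 0.51 ± 0.16 (adjusted p = 0.019, limma) from 4.59 ± 0.21 to 7.09 ± 1.74 TPM, a call lost without TLSMG replicate 1 or TLSMGC replicate 1 (adjusted p = 0.053 and 0.086, limma). Higd1a, a mitochondrial protein, and Kdm3a, a histone demethylase, did not pass that comparison (0.31 and -0.26, adjusted p = 0.16 and 0.12, limma). Higd1a was above 96h in TLSMGC (0.59 ± 0.17, adjusted p = 0.013, limma), at the threshold without TLSMGC replicate 3 (adjusted p = 0.0504, limma).

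Ndrg1, a stress- and differentiation-linked gene counted among hypoxia targets, was lower with added CHIR than in both groups without it at 120 h. It stood at 2.69, 2.05 and 1.73 TPM at 96h, 8.44, 9.59 and 11.3 in Gastruloid, 10.5, 10.3 and 10.8 in TLSMG, 6.21, 6.17 and 4.83 in TLSMGC and 2.74, 3.64 and 3.84 in TLSMGCL. All 6 libraries without added CHIR at 120 h exceeded the other 9. The differences were 1.77 ± 0.14 from 96h to Gastruloid, 1.88 ± 0.14 to TLSMG and -0.78 ± 0.14 from TLSMG to TLSMGC (adjusted p = 4.1e-07, 2.2e-07 and 7.5e-04, limma). It was the only member whose 6 libraries with added CHIR all lay below the 6 without (14.5% of all genes did).

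The HIF hydroxylases on the list also differed from the enzymes. Egln1 stood at 25.2, 26.2 and 25.6 TPM at 96h, 35.7, 41.6 and 43.1 in Gastruloid, 42.8, 44.0 and 50.5 in TLSMG, 52.5, 50.7 and 47.7 in TLSMGC and 46.1, 40.1 and 45.8 in TLSMGCL. Every 120 h library exceeded the 96h libraries, by 0.62 ± 0.09 in Gastruloid, 0.81 ± 0.09 in TLSMG and 0.94 ± 0.09 in TLSMGC (adjusted p = 6.7e-05, 5.5e-06 and 1.5e-06, limma). Egln3, itself a HIF target, was highest in TLSMG (10.2 ± 0.83 TPM, 0.48 ± 0.13 above 96h, adjusted p = 0.0086, limma) and lower in TLSMGC (7.12 ± 1.48 TPM, -0.48 ± 0.13, adjusted p = 0.010, limma). Car9 was listed at 0 in 11 libraries and stayed at or below 0.15 TPM in the others, and Adm never exceeded 0.43 TPM. Both are common targets of HIF.

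In all, 16 of the 36 IDs (44.4%) had their 6 libraries with added CHIR above all 6 without it at 120 h, against 5.54% of all genes. They were Gpi1, Pfkl, Pfkp, Aldoa, Tpi1, Pgk1, Pgam1, Eno1, Pkm, Pdk1, Pfkfb3, Slc16a3, Vegfa, Bnip3, P4ha1 and Mif.

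To show where the members hold the core of the HIF binding site, the promoters were read from RefSeq (GRCm38.p6, the same build). The cores searched were ACGTG and GCGTG on both strands in the 250 bases before each start; ACGTG lies within the E-box CACGTG, which was counted once on each strand. RefSeq windows were found for 36 of the 38 members, and 32 of these held at least 1 core. By window, 40 of 52 member windows (76.9%) held one, against 38.6% of all 32851 windows. Among genes tested, 38 of 49 member windows (77.6%) held one, against 56.6% of 12302. The median GC content was 60.4% both for the 52 member windows and for the windows of genes tested. The list was chosen to hold hypoxia-response genes, so a share above that of other genes tells nothing about CHIR. Members that rose with CHIR were not compared with those that did not. The stretches below run from 150 to 6 bases before the start, with cores in capitals. The first 3 belong to the members that rose most with CHIR, Pgk1 is a main-path enzyme, and Slc2a1 is a transporter that did not rise.
Slc16a3: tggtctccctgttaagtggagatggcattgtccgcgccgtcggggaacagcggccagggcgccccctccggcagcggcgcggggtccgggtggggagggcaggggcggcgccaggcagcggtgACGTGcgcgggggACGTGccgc
Bnip3: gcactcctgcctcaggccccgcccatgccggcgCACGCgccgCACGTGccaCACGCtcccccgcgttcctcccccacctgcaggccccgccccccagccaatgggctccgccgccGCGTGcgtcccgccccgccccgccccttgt
Pfkp: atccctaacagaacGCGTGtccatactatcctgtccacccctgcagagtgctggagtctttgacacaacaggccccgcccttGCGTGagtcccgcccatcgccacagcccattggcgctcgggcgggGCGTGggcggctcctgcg
Pgk1: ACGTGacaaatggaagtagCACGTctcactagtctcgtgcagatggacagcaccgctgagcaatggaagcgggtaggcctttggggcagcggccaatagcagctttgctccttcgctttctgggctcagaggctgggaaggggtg
Slc2a1: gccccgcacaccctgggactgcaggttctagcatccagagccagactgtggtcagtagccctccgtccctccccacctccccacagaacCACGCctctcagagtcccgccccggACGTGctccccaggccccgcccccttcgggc

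The stretches lie at chr11:120948917-120949061 (plus strand) for Slc16a3, chr7:138909512-138909656 (minus) for Bnip3, chr13:6648777-6648921 (minus) for Pfkp, chrX:106186950-106187094 (plus) for Pgk1 and chr4:119108595-119108739 (plus) for Slc2a1. Slc16a3 holds 2 cores here, both ACGTG, in direct repeat. Bnip3 holds 5, of which 2 are the strands of 1 E-box. Pfkp holds 3, all GCGTG, Pgk1 holds 2, both ACGTG, and Slc2a1 holds 2, 1 of each kind. Tpi1, Gpi1, Mif and Eno2 held no core in any window. Whether holding a core goes with the response to CHIR was not tested. A match is a description of letters and says nothing of binding.

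Matrigel alone, TLSMG against Gastruloid, called 12 members (33.3%, against 39.3% of all genes, 31.5% higher and 7.87% lower), 7 higher and 5 lower. By separation of libraries, 8 lay all above and 4 all below (52.3% of all genes were separated). Median-of-ratios scaling turned this split into 5 higher and 9 lower, and that of all genes called from 80% to 51.6% higher. Members higher in TLSMG were Egln3 (0.80), Pdk1 (0.68), Hk2 (0.62), Kdm3a (0.56), Pfkfb3 (0.52), Pdk3 (0.44) and Bnip3 (0.29). Those lower were Slc2a1 (-0.81), Aldoc (-0.50), Ldhb (-0.29), Tpi1 (-0.21) and Mif (-0.19). After correction for GC content and length, Bnip3 turned to -0.06 (adjusted p = 0.71, limma) and Mif to 0.07 (adjusted p = 0.27, limma), so neither direction holds under every scaling.

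In that comparison the log2 differences of all genes ran with GC content (r = -0.41 across 14283 genes, which are not independent), and the correction also ended the calls of Tpi1, Ldhb, Pfkfb3 and Kdm3a (adjusted p = 0.18, 0.059, 0.24 and 0.080, limma). With both corrections together Pdk1 stood at 0.33 (adjusted p = 0.052, limma). Without single libraries the call of Pfkfb3 was lost for 5 of 6 libraries, all but Gastruloid replicate 1 (adjusted p up to 0.22, limma), and those of Tpi1 and Mif for all but TLSMG replicate 3 (up to 0.19 and 0.15, limma). Bnip3 lost its call without Gastruloid replicate 1, TLSMG replicate 1 or TLSMG replicate 3 (0.13, 0.11 and 0.087, limma). Slc2a1, Aldoc, Egln3, Hk2 and Pdk3 kept theirs in every alternative run other than a minimum change of 1.

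LDN on top of CHIR gave few calls. TLSMGCL against TLSMGC called 1 of 36 members (2.78%, against 1.18% of all genes, 0.406% higher and 0.777% lower): Slc16a1, at 112, 121 and 109 TPM in TLSMGC and 90.8, 91.0 and 90.2 in TLSMGCL. These groups did not overlap (-0.32 ± 0.07, adjusted p = 0.039, limma). The call was lost without any of TLSMGC replicate 1 or 2 or TLSMGCL replicate 1, 2 or 3 (adjusted p = 0.083, 0.15, 0.12, 0.080 and 0.12, limma). It was also lost under each of 4 other scalings, among them FPKM in place of TPM (adjusted p up to 0.23, limma). Ndrg1 had the largest difference, -0.61 ± 0.14, and did not pass (adjusted p = 0.060, limma). Libraries were separated for 2 members above and 8 below (15.8% of all genes). TLSMGCL against TLSMG called 18 members higher and 4 lower (61.1%, against 44.9% of all genes, 9.31% higher and 35.6% lower), and separated 18 above and 5 below (54.7% of all genes), with Slc16a3 at 1.59, Bnip3 at 1.52, P4ha1 at 0.89, Pfkfb3 at 0.85 and Tpi1 at 0.82. The 4 lower ones were Ndrg1 (-1.40), Pdk3 (-0.66), Egln3 (-0.56) and Slc16a1 (-0.41, which the GC and length correction took to -0.09, adjusted p = 0.47, limma).

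Related forms were also set against each other within a library, as the log2 ratio of TPM + 1, and 12 pairs were compared between the 6 libraries with added CHIR and the 6 without at 120 h. The 6 without include the 3 grown without Matrigel, and each 6 holds 2 treatments. With exact permutation tests (two-sided, 924 splits, adjusted over the 12 pairs), 10 ratios passed 0.05, or 7 with a pseudocount of 0.1 in place of 1. The smallest p these splits allow is 0.00216, which the adjustment took to 0.00433 in these data. The Slc16a3 to Slc16a1 ratio moved most, by 1.88 on the log2 scale (exact adjusted p = 0.0043): Slc16a3 made up 60.7% ± 1.08 (SD, n = 3) of the TPM of the pair at 96h, 29.8% ± 4.31 in Gastruloid, 28.3% ± 2.12 in TLSMG, 59.1% ± 1.16 in TLSMGC and 61.5% ± 5.53 in TLSMGCL. Pdk1 against Pdk3 moved by 1.17 (exact adjusted p = 0.0043), with a Pdk1 share of 34.9%, 29.1%, 32.8%, 50.8% and 50.4% in the same order.

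Pfkfb3 against Pfkfb4 moved by 1.05, Hk2 against Hk1 by 0.96, Pfkp against Pfkm by 0.81 and Pfkl against Pfkm by 0.45 (exact adjusted p = 0.0043 each), and Ldha against Ldhb by 0.70 (exact adjusted p = 0.0065). Eno1 against Eno2 (0.82, exact adjusted p = 0.0065) rests on the low Eno2, at 0.12 to 1.90 TPM, and with a pseudocount of 0.1 it stood at 1.15 and did not pass (exact adjusted p = 0.055). Aldoa against Aldoc (0.33) and P4ha1 against P4ha2 (0.40) passed narrowly (exact adjusted p = 0.042 each); the first lost its call without any of 9 of the 12 libraries and the second without any of 9, with adjusted p up to 0.086 in exact tests, and both did with a pseudocount of 0.1 (exact adjusted p = 0.062 and 0.055). Slc2a1 against Slc2a3 (0.14) did not pass (exact adjusted p = 0.49), though it did without Gastruloid replicate 1 (0.30, exact adjusted p = 0.026). Egln3 against Egln1 (-0.25) did not pass either (exact adjusted p = 0.18).

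**Figure D5:**
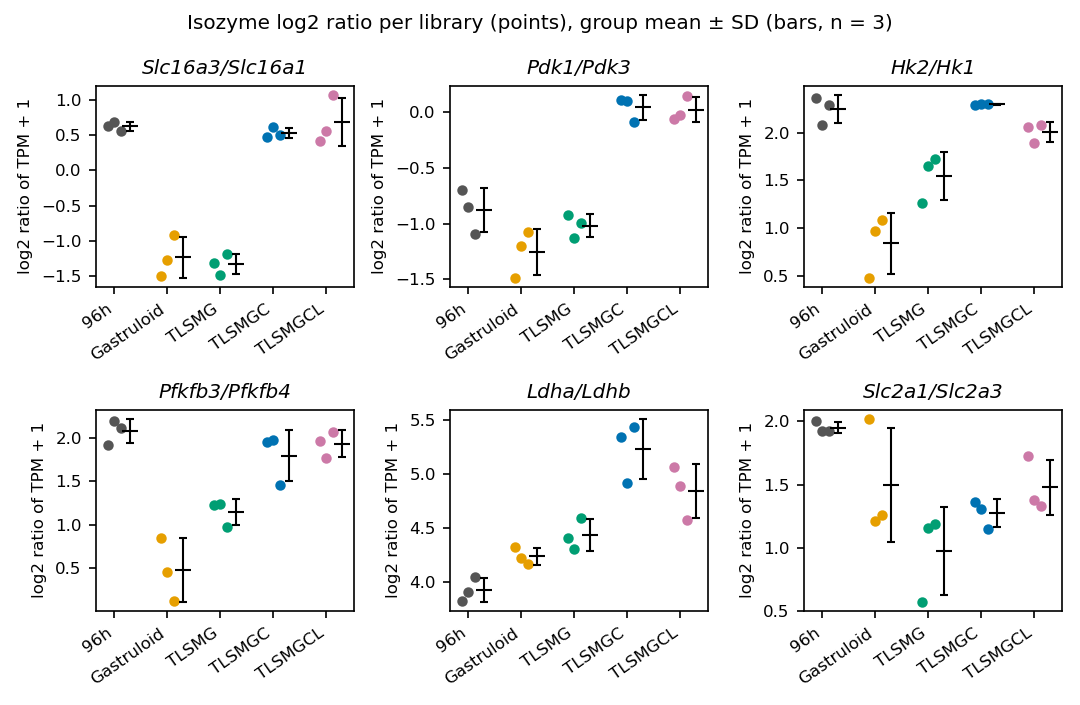
Log2 ratio of TPM + 1 between 2 related genes in each library (points) with the group mean ± SD (n = 3) for 6 pairs. Slc16a3/Slc16a1 and Pdk1/Pdk3 are higher in all 6 libraries with added CHIR than in the 6 without it at 120 h, while Slc2a1/Slc2a3 overlaps between them.

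Of 8 HIF pathway regulators tested, 0 were higher and 6 lower in TLSMGC than in TLSMG (median -0.47), against 10.4% of all genes higher and 30.5% lower (median -0.16). Arnt and Vhl did not pass (-0.01 and -0.65, adjusted p = 0.92 and 0.063, limma). Epas1, the HIF subunit best known from endothelium, stood at 1.73, 1.00 and 1.07 TPM at 96h, 1.33, 1.35 and 1.87 in Gastruloid, 6.67, 6.06 and 4.60 in TLSMG, 0.76, 1.02 and 0.34 in TLSMGC and 0.64, 0.30 and 0.42 in TLSMGCL. Only the TLSMG libraries, which also had the highest endothelial marker sums, exceeded 2 TPM, and TLSMGC was lower by -2.0 ± 0.18 (adjusted p = 2.2e-06, limma). Whether the marker sums bear on Epas1 was not tested. Hif1a, the widespread HIF subunit, averaged 94.5 ± 12.6 TPM at 96h, 60.1 ± 4.67 in Gastruloid, 101 ± 8.00 in TLSMG, 73.8 ± 10.9 in TLSMGC and 70.8 ± 13.6 in TLSMGCL (SD, n = 3), and was lower in TLSMGC than in TLSMG by -0.46 ± 0.15 (adjusted p = 0.021, limma). These are transcript levels, whereas HIF is set largely by protein stability.

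Myc and Mycn, regulators that also act on glycolytic genes, were read beside the members. Mycn fell from 155 ± 22.6 TPM at 96h to 69.1 ± 5.00 in Gastruloid, 80.5 ± 2.88 in TLSMG, 34.8 ± 2.34 in TLSMGC and 27.3 ± 0.22 in TLSMGCL, and TLSMGC was lower than TLSMG by -1.19 ± 0.09 (adjusted p = 4.2e-07, limma). Myc rose over 96h in TLSMG (0.88 ± 0.15, adjusted p = 2.9e-04, limma) and in TLSMGC (1.10 ± 0.15, adjusted p = 5.3e-05, limma), and did not pass between TLSMGC and TLSMG (0.22 ± 0.15, adjusted p = 0.25, limma).

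The counts of the following lists in TLSMGC against TLSMG stand against 10.4% of all genes higher and 30.5% lower. Of 16 other hypoxia-induced genes tested, 5 were higher and 3 lower (median 0.28). The largest were Ppp1r3c, which promotes glycogen storage (1.27), the secreted Stc2 (1.07) and the transcription factor Bhlhe40 (0.95). Around the pathway, 3 of 7 pentose phosphate genes rose and 0 fell, with Tkt at 0.45 ± 0.05 (adjusted p = 1.7e-05, limma). Of 23 genes of pyruvate entry and the TCA cycle 7 rose and 1 fell, with a median of 0.01 and Pdha1, a subunit of pyruvate dehydrogenase, the largest at 0.58 ± 0.05 (adjusted p = 1.4e-06, limma). Of 10 genes of gluconeogenesis and glycogen 1 rose and 4 fell, shares near those of all genes, among them Pcx, pyruvate carboxylase, at -0.84 ± 0.09 (adjusted p = 7.3e-06, limma). Of 6 tissue-restricted isozymes 0 rose and 2 fell, also near those shares, the insulin-responsive transporter Slc2a4 (-1.64) and the kinase Pdk2 (-0.78).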

How the data were processed

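Bulk RNA was measured in 15 libraries, and 5 single-cell samples and the NanoString measurements of the series were not analysed here. The deposited TPM and FPKM values and coverage per gene stand in 1 StringTie gene abundance table per library, per the file headers. The authors used cutadapt 2.4, STAR 2.7.3a and StringTie 2.0 with build mm10, per the submitters' processing notes; the annotation release is not given in the sources used here. Lines of 1 gene ID were summed. The tables hold no read counts, so no intervals or detection floors were computed.

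Groups were compared with limma 3.58.1 (R 4.3.3) on log2(TPM + 1), which understates changes of low genes: 14290 genes with a mean of at least 1 TPM, 1 fit of 5 groups, a trend in the prior variance, two-sided tests and Benjamini-Hochberg adjustment over all genes, threshold 0.05. Isozyme ratios were tested by exact permutation in Python 3.11.15. Near-identical copies were found with blastn 2.17.0 (at least 90% identity over 50% of the copy). The fit and the permutation test were checked on simulated data. Members and lists were chosen with earlier results of these data known. Named were called members with up to the 8 largest differences per comparison and direction and, with every library's value, those whose group means spanned at least 1 on the log2 scale; Slc2a1, Slc16a1, Aldoa, Pgk1 and Egln1 were given in full in addition. From other lists at most 3 called genes were named, with Hif1a, Epas1, Myc and Mycn always. Alternatives changed the pseudocount, the filter, the scaling, GC and length, the samples in the fit, the replicate block, the variance trend, the smallest change, the copies and the libraries.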

Additional observations from a re-analysis of the deposited data

How the results depend on the processing

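Of 124 calls of members in the 7 comparisons, 88 were kept under every alternative other than a minimum change of 1, 30 were lost without at least 1 library and 17 under another scaling. With that minimum of 1 on the log2 scale, 4 members were called in Gastruloid against 96h, 3 in TLSMG against 96h, 5 in TLSMGC against 96h, 0 in TLSMG against Gastruloid, 3 in TLSMGC against TLSMG, 0 in TLSMGCL against TLSMGC and 3 in TLSMGCL against TLSMG, since most changes were smaller. The single call of TLSMGCL against TLSMGC became 0 with no filter, after median-of-ratios scaling, with GC and length correction, with only the groups compared in the fit and with no variance trend, and 0 to 2 without 1 library. With FPKM, and with median-of-ratios scaling and GC and length correction together, the count stayed at 1. The member called there was not Slc16a1. Without 1 library the other counts ran from 19 to 23, 18 to 22, 13 to 19, 8 to 11, 24 to 26 and 19 to 20 in the same order, TLSMGCL against TLSMGC left out, and from 30 to 33 and 27 to 32 for the F tests over 5 groups and at 120 h. The shares of all genes called under that minimum and without 1 library are not given here. These counts thus say nothing particular to the members. In TLSMG against Gastruloid, Bnip3 went from 0.292 to -0.055 and Mif from -0.190 to 0.073 with GC and length correction, and to -0.067 and 0.048 with median-of-ratios scaling added; the last setting and the addition of all near-identical copies were chosen after seeing the data. Same-numbered libraries did not deviate together on average (mean r from -0.07 to 0.04). Such a mean cannot tell whether the numbers mark shared experiments, and the labels do not say. With the replicate block 9 in place of 12 members were called in TLSMG against Gastruloid and 0 in place of 1 in TLSMGCL against TLSMGC. With a pseudocount of 0.1 the isozyme ratios past the threshold went from 10 to 7. The cause of these changes was not tested. The tables give no counts, so the counting error of genes at a few TPM, such as Pfkp and Ndrg1, is not known.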
